A study of Homo sapiens with 6 samples.

Results

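Peaks of N4-acetylcytidine (ac4C) within coding sequence (CDS) were examined in 2 human colorectal cancer (CRC) cell lines. The pooled peak list of the acRIP-seq experiment held 15622 peaks. Its members with the position CDS and a protein-coding host gene numbered 4850, or 31.0% (95% Wilson interval 30.3 to 31.8), and they lay on 3289 host genes. The 7399 peaks in the 3'-UTR of protein-coding genes were the class set beside them most often.

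The study asked which transcripts NAT10 binds and acetylates in CRC cells. SW480 and DLD-1 are epithelial lines that were derived from tumours of the large bowel. Both were given as wild type and untreated, and were grown in DMEM with serum. The study describes both lines as p53 mutant, so wild type does not extend to p53. For each line there was 1 library of total RNA as Input, 1 of RNA immunoprecipitated with a NAT10 antibody (RIP) and 1 of RNA immunoprecipitated with an ac4C antibody (acRIP), 6 libraries in all. Without replicates no p-value was computed, and each difference compares libraries. Intervals cover counting error only, and neighbouring peaks or sites of a gene are not independent. In the Input columns of the table deposited with the acRIP data, 7 of 8 markers of colorectal epithelium were at 1 FPKM (fragments per kilobase, scaled to the library) or more in each line, with sums of 1892 and 913 in SW480 and DLD-1. CDX1 was at 0.672 FPKM in SW480 and was listed at 0 in DLD-1. None of the markers of blood, endothelium or fibroblasts reached 1 FPKM. The acRIP libraries have no expression column used here, so their labels could not be checked against marker genes, and their depth is unknown.

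ac4C is an acetyl group on a cytidine of RNA. NAT10 writes it on ribosomal RNA and on some transfer RNAs, and it has also been reported on messenger RNA, where C-rich CXX repeats have been linked to it. Within coding sequence the genetic code is read in triplets, so a C can stand at the first, the middle or the last base of a codon, and ac4C at the last (wobble) base has been linked to how well a codon is decoded. Exons are joined before translation, and a peak on mature mRNA can therefore run across an exon junction. The peak lists describe such a peak by blocks, each block being the stretch within 1 exon. They also list sites in each peak where 4 Cs follow each other at steps of 3 bases, the 12-base pattern CNNCNNCNNCNN.

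Examples of coding peaks were read where a window of RefSeq around a gene start (GRCh38.p14) happened to overlap them. In all, 168 CDS peaks could be read in part, 12008 bases with 29.5% C and 31.6% G. The stretches below are shown for the reading frame and the pattern. They lay at least 500 bases inside the ends of the host, were at least 100 bases long and had exactly 1 reading frame without a stop codon. In all, 10 stretches met these rules, of which 6 held a listed site and all 6 are printed. Of the 4 without a site, the longest (DIAPH1) is printed. Capitals mark listed sites of the pattern.
TACC3 (chr4:1740796-1741076, plus strand): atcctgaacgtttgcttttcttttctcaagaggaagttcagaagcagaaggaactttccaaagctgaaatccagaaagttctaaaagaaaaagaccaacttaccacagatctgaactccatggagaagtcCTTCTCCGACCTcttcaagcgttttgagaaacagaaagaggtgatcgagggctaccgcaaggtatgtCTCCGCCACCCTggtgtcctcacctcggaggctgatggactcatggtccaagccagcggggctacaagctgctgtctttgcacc
ERP29 (chr12:112022150-112022314, plus strand): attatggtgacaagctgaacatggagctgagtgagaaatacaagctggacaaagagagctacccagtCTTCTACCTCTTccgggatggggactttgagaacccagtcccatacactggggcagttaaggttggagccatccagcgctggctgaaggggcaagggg
SPA17 (chr11:124675263-124675418, plus strand): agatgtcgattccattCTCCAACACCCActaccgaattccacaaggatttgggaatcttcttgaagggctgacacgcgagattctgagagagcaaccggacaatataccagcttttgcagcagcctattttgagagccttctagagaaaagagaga
CUL7 (chr6:43040930-43041075, minus strand): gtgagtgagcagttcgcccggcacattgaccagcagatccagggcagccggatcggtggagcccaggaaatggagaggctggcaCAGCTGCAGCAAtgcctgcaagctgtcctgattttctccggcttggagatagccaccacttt
KLK5 (chr19:50949873-50950016, minus strand): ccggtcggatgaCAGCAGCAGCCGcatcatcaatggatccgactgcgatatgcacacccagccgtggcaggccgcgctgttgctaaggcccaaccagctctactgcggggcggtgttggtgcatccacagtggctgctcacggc
CCT4 (chr2:61878869-61879011, minus strand): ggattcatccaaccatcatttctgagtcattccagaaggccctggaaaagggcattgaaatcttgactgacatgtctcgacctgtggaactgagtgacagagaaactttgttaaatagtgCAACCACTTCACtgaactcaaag
DIAPH1 (chr5:141516868-141517008, minus strand): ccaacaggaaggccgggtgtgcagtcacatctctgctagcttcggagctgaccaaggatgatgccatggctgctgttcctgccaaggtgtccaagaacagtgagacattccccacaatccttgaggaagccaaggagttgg
TACC3, a protein of the mitotic spindle, had a peak of 300 bases in 1 block with a fold of 29 and 2 sites, 67 bases apart and thus not at a multiple of 3. The first C of the first site stood at codon position 3 of the frame without a stop. The letters before the second site (aaggtatgt) resemble a splice donor, so that site may lie in an intron and no codon position is given for it. In ERP29, a chaperone of the endoplasmic reticulum, the peak had 2 blocks and a fold of 5.73, and the site started at codon position 3. The sites shown in SPA17, a sperm surface protein, and in KLK5, a serine protease of the epidermis, also started at codon position 3. The SPA17 peak had a fold of 10.9. The KLK5 peak had a fold of 727 and 10 sites, of which 1 lay in the window. CUL7, a cullin of a ubiquitin ligase, had a peak with a fold of 5.94 whose site started at codon position 1. CCT4, a subunit of the chaperonin TRiC, had a fold of 11.1 and its site started at codon position 2. The DIAPH1 peak, in a formin that nucleates actin, had 2 blocks, a fold of 2.72 and no site.

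Of 50 readable stretches of at least 90 bases, 15 had no frame free of stops and 15 had more than 1. Codon positions were counted over the 20 stretches with exactly 1 such frame, 3071 bases in all. The pattern occurred 19 times, and its first C stood at codon position 3 in 9 of them (47.4%, 27.3 to 68.3), at position 1 in 36.8% and at position 2 in 15.8%. For the 9-base pattern CNNCNNCNN the share at position 3 was 52.7% (29 of 55, 39.8 to 65.3). Of all C bases of these stretches, 38.0% stood at position 3. At position 3 the interval of the 12-base pattern included an even 33.3%, and that of the 9-base pattern did not. The frames were taken from the absence of stop codons, since no exon annotation of the files' build was used. All stretches lay within deposited blocks, and some may still hold intron sequence, as in TACC3. The second TACC3 site was nevertheless counted here, at position 1.

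Over the whole list, the sites of coding peaks kept the triplet period. The pattern was not read in coding sequence outside peaks, so whether the period is particular to peaks was not tested. Neighbouring sites within a block lay at a distance that is a multiple of 3 in 54.6% of 3272 pairs (1786 pairs, 52.9 to 56.3). In 3'-UTR peaks the share was 35.7% of 4382 pairs (34.3 to 37.1), and 33.3% is the share if the 3 remainders were even. The other remainders took 22.6% and 22.9% of coding pairs. In 5'-UTR peaks the share was 42.0% (35.9 to 48.4), and among peaks with the position exon it was 43.0%. On the minus strand, the positions listed for peaks of more than 1 block were first laid out anew on the blocks, since only 46.8% of 2496 such sites in CDS peaks lay inside a block as listed, against 100% of 2404 on the plus strand. After this step all 2496 lay inside a block. As listed, 2598 CDS pairs could be measured within blocks and gave 54.4%.

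The period also ran across exon junctions once the intron was left out. For 884 pairs whose sites lay in different blocks of a CDS peak, the distance along the joined blocks was a multiple of 3 in 428 pairs, 48.4% (45.1 to 51.7). The distance in the genome, intron included, was a multiple of 3 in 33.5% (30.5 to 36.7). The share along the joined blocks was 52.8% (48.2 to 57.3) of 453 pairs on the plus strand and 43.9% (39.2 to 48.6) of 431 on the minus strand, and the cause of this gap was not tested. Within blocks the strands gave 54.8% and 54.4%. In 3'-UTR peaks the 367 pairs across junctions gave 43.3% (38.3 to 48.4) along the joined blocks, an interval that overlapped that of CDS pairs.

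The excess at multiples of 3 was present at short and long distances. The pattern is itself built of triplets, and a run of CNN repeats gives sites 12 bases apart, the smallest distance in the lists. This distance took 342 pairs (10.5%) in CDS peaks and 218 (4.97%) in 3'-UTR peaks. Distances of 15 and 18 bases took 3.58% and 3.79% of coding pairs, against 1.96% and 1.21% in the 3'-UTR. For pairs at least 30 bases apart, 49.7% (47.5 to 51.9) of coding pairs lay at a multiple of 3, against 33.1% (31.5 to 34.8) in the 3'-UTR. Taking 1 pair per peak gave 51.2% (48.4 to 54.0) against 33.4%.

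The intervals of the lines overlapped. Among CDS peaks of the list called in SW480 the share within blocks was 53.6% (51.2 to 56.1), and in the DLD-1 list it was 55.0% (53.4 to 56.7). CDS peaks of the SW480 list that overlapped no DLD-1 peak gave 55.4% of 596 pairs. Those of the DLD-1 list that overlapped no SW480 peak gave 55.4% of 2071 pairs. Peaks at or above the median fold gave 53.9% (51.7 to 56.1) and those below it 55.6% (52.9 to 58.3). Sites were spread evenly along 1-block CDS peaks, with 31.9%, 34.7% and 33.4% of 2097 sites in the 3 equal parts from 5' to 3'.

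**Figure D1:**
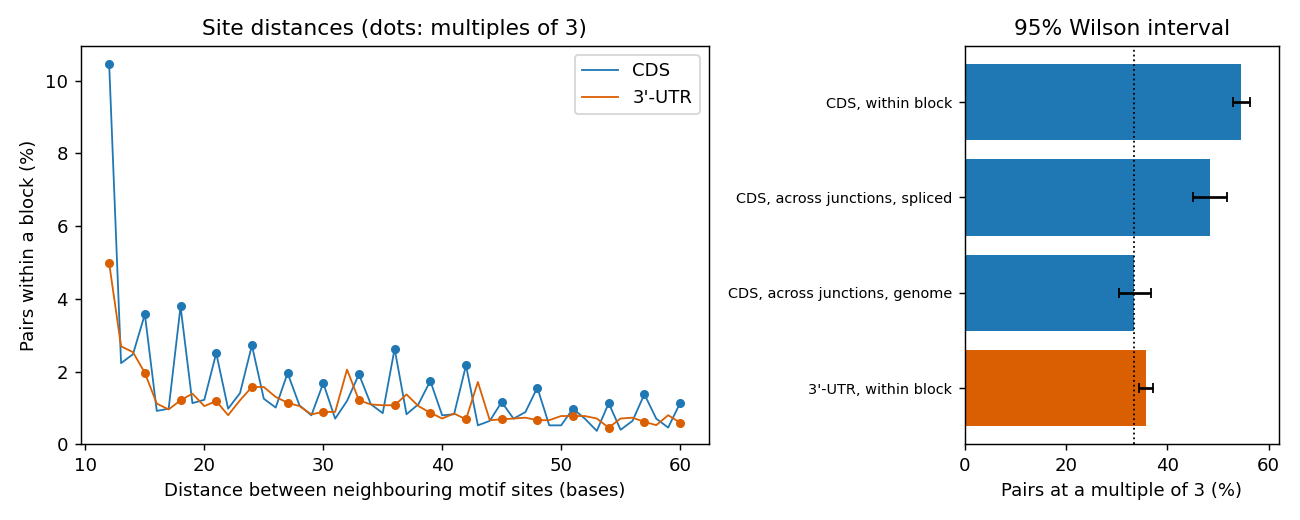
Left, percent of neighbouring site pairs within a block (y axis) at each distance from 12 to 60 bases (x axis) in CDS and 3'-UTR peaks, with dots at multiples of 3. Right, percent of pairs at a multiple of 3 with 95% Wilson intervals, where the dotted line is an even spread (33.3%). Coding peaks rise at nearly every multiple of 3, and within blocks and along joined blocks they lie at 54.6% and 48.4%, whereas genome distances across junctions and 3'-UTR pairs within blocks lie at 33.5% and 35.7%.

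Individual peaks showed both regular and irregular spacing. SF3B4, a subunit of the U2 snRNP splicing complex, had 16 sites in 1407 bases in 5 blocks, and 6 of its 11 neighbouring pairs within blocks were at a multiple of 3. In DPP9, a dipeptidyl peptidase, this held for 10 of 12 pairs. In ZNF205, a zinc finger protein, 8 of 11 pairs were at a multiple of 3. HNRNPA0, an RNA-binding protein encoded in 1 exon, had 12 sites in 690 bases and 9 of 11 pairs at a multiple of 3. For TUBA4A, an alpha-tubulin, this held for 7 of 8 pairs. GAPDH, the glycolytic enzyme, had 15 sites but only 5 of 12 pairs at a multiple of 3, and EIF4G1, the scaffold of cap-dependent initiation, had 1 of 4. These examples were chosen after their spacing was seen.

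Sites were more frequent in coding peaks than in 3'-UTR peaks. At least 1 site was listed in 58.6% of CDS peaks (2841 peaks, exact binomial interval 57.2 to 60.0), against 48.4% in the 3'-UTR, 72.2% in the 5'-UTR and 54.1% of all 15622 pooled peaks. The 6997 sites came to 5.37 per kilobase, against 3.81 in the 3'-UTR and 8.06 in the 5'-UTR. The gap was there at equal length. For peaks of 150 to under 200 bases the share was 49.8% (47.4 to 52.1) of 1746 CDS peaks and 33.5% (31.7 to 35.4) of 2620 3'-UTR peaks. For peaks of 500 bases or more it was 86.6% and 82.1%, with intervals of 83.0 to 89.7 and 79.5 to 84.5 that overlapped. Base composition of the peaks was not compared, because most peaks could not be read. The peak with the most sites was in THBS1 (thrombospondin, a secreted matrix protein), with 20 sites in 1886 bases. TUBB (beta-tubulin), SOX15 (a transcription factor), DPP9 and SF3B4 followed with 16 each. The DPP9 peak held its 16 sites in 689 bases of 4 blocks.

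CDS peaks were made of several exons far more often than other peaks. More than 1 block was present in 3485 CDS peaks, 71.9% (70.6 to 73.1), against 11.3% of 3'-UTR peaks, 39.2% of 5'-UTR peaks and 34.5% of all pooled peaks. The block numbers were 1 in 1365 peaks, 2 in 1897, 3 in 1005, 4 in 338, 5 in 137 and 6 or more in 108. CDS peaks thus crossed 6106 junctions. An inner block, which spans an exon whole, had a median of 107 bases (quartiles 79 and 142, 2621 blocks). The gaps between blocks had a median of 1024 bases and reached 272883, while 19 gaps were under 20 bases.

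The median CDS peak was 210 bases long (quartiles 178 and 300, range 115 to 2370), close to the 211 bases of 3'-UTR peaks. In 4315 CDS peaks (89.0%) the length was within 1 base of a multiple of 30, so lengths follow a grid of 30 bases and not the exon. Peaks with more blocks were longer and had a higher fold. Peaks of 1 block had a median length of 181 bases, a median fold of 9.06 and 6.98 sites per kilobase, and peaks of 6 or more blocks had 689 bases, 28.8 and 4.11. The share of peaks that overlapped a peak of the SW480 list also differed, at 36.5% for 1 block and 63.0% for 6 or more. Over all CDS peaks, both values rose with length as well. CDS peaks under 150 bases had a median fold of 5.89 and 17.0% in SW480, and those of 500 or more had 42.9 and 77.2%. Block number at equal length was not tested.

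**Figure D2:**
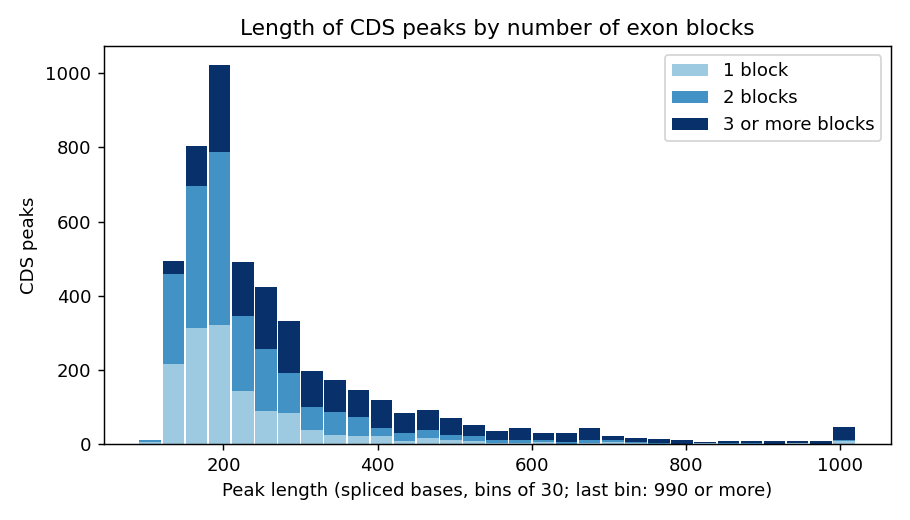
Number of CDS peaks (y axis) by spliced length in bins of 30 bases (x axis), stacked by 1, 2 and 3 or more exon blocks, with all peaks of 990 bases or more in the last bin. Most peaks lie between 120 and 300 bases, and peaks of 3 or more blocks make up most of those above 300 bases.

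The peak with the most blocks lay in FARSB, the beta subunit of phenylalanyl-tRNA synthetase, with 12 blocks and 1402 bases drawn from chr2:222571758-222634515 on the minus strand. LCP1, an actin-bundling protein of white blood cells, had 11 blocks and TNNT1, a troponin of slow muscle, had 10. THBS1 and the RNA helicase DHX9 had 9 each. The longest peak was that of TUBB, 2370 bases in 4 blocks at chr6:30722170-30725396 on the plus strand, with a pooled fold of 819. Its fold was 99.3 in SW480 and 556 in DLD-1. The next were THBS1 (1886 bases), EIF4G1 (1885), DHX9 (1882) and GAPDH (1699). GAPDH had a fold of 24.9 in SW480 and 34.8 in DLD-1 at Inputs of 429 and 370 FPKM. Tubulins and GAPDH have near-identical copies in the genome, so their read counts are uncertain.

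The median fold of CDS peaks was 10.4 (quartiles 5.66 and 20.4, range 1.36 to 2430), below the 15.8 of 3'-UTR peaks. The fold, as deposited, divides the acRIP signal of a peak by its Input signal. Fold values were not spread continuously. The 4850 CDS peaks took 1095 different values, the commonest being 8.15 in 111 peaks. Below a fold of 10, 25.2% of 2392 CDS peaks lay within 0.005 of a whole multiple of 0.906, where an even spread would give 1.10%. In the SW480 and DLD-1 lists the steps were 1.04 and 0.787, and 37.0% and 36.3% of CDS peaks below 10 lay on them. A fold of 8.15 is 9 such steps. The reads behind the folds are not in the columns used here, so no counting error can be given for a single fold.

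CDS peaks were found mainly through DLD-1. The DLD-1 list held 5337 CDS peaks on protein-coding hosts, 38.2% of its 13964 peaks, and the SW480 list held 2306, 24.2% of 9536. Of the pooled CDS peaks, 3962 overlapped a DLD-1 peak by at least 1 base on the same strand (81.7%, 80.6 to 82.8), against 73.7% of all pooled peaks. A SW480 peak was overlapped by 1825 (37.6%, 36.3 to 39.0), against 52.9% of all pooled peaks. Both lists held 1175 of them (24.2%, against 32.1% of all pooled peaks), 650 were in the SW480 list only, 2787 in the DLD-1 list only, and 238 in neither. The pooled list and the lists of the lines come from the same libraries, so overlap is no independent check of a peak.

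For 3'-UTR peaks the lines were closer, with 60.7% in SW480 and 69.6% in DLD-1. The same held within the 1803 hosts that carried both kinds of peak, where SW480 held 28.2% (26.6 to 29.9) of the CDS peaks and 60.3% (58.5 to 62.1) of the 3'-UTR peaks. In DLD-1 the shares in these hosts were 84.2% and 77.3%. It held too when peaks were divided by the quartiles of fold over all pooled peaks. The SW480 shares of CDS and 3'-UTR peaks were 23.2% and 37.8% in the lowest group, 32.9% and 45.6% in the next, 40.5% and 61.7% in the next, and 70.6% and 86.4% in the highest. With 1 acRIP library per line of unknown depth, line and library cannot be told apart.

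**Figure D3:**
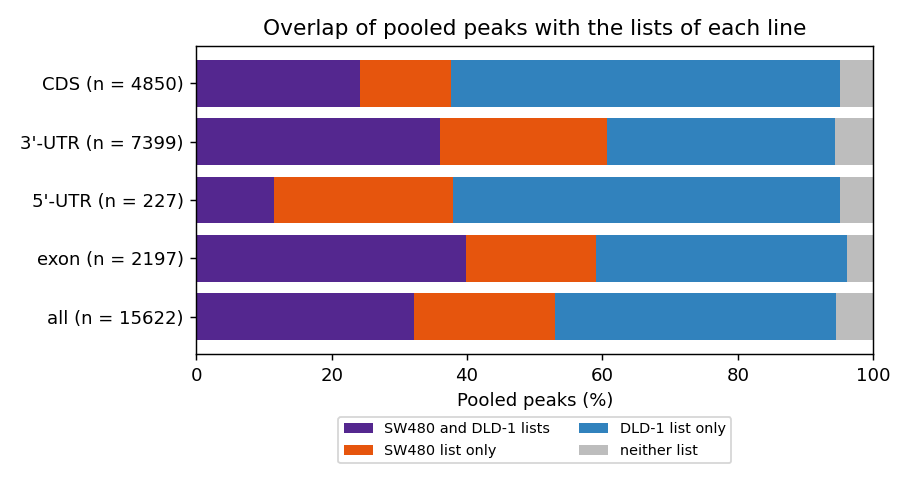
Percent of pooled peaks (x axis) found in the lists of both lines, of SW480 only, of DLD-1 only or of neither, for CDS, 3'-UTR, 5'-UTR and exon peaks of protein-coding hosts and all peaks. In the CDS bar the DLD-1 only part is 57.5% and the SW480 only part 13.4%, against 33.6% and 24.7% in the 3'-UTR bar.

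Peaks found in both lines were longer and stronger, with a median length of 359 bases and a median pooled fold of 23.5. Their median fold was 19.8 in SW480 and 23.2 in DLD-1. The fold was higher in SW480 in 573 of 1175 (48.8%), with a median log2 ratio of SW480 to DLD-1 of -0.06, against 0.41 in the 3'-UTR peaks of both lines. The plot of both folds shows wide scatter for single peaks. The highest pooled fold was in FGFBP1, a secreted carrier of fibroblast growth factors, at 2430. It was 1620 in SW480 and 920 in DLD-1. MAGEA4, a cancer-testis antigen, had a pooled fold of 2290, with 56.2 in SW480 and 1930 in DLD-1. KRT15, a keratin of basal cells in stratified epithelium, had 2270, with 2490 in SW480 and 269 in DLD-1. GPAA1, a subunit of the GPI transamidase, and DEFB1, an epithelial defensin, followed at 1950 and 1810. DEFB1 had Inputs of 0 FPKM in SW480 and 0.967 in DLD-1, and MAGEA4 was listed at 0 in both. Neither line was the higher one throughout, since SW480 had the larger fold for FGFBP1, KRT15 and DEFB1 and DLD-1 for MAGEA4 and GPAA1.

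**Figure D4:**
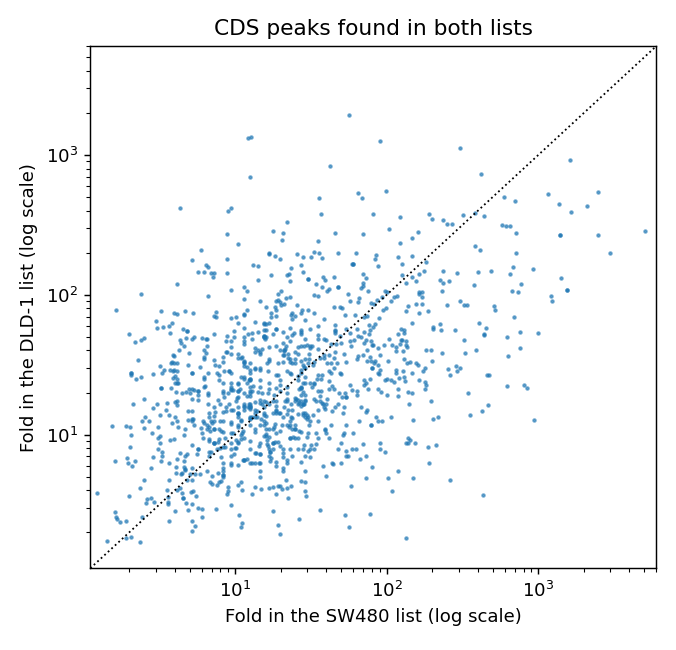
Fold of acRIP over Input in the SW480 list (x axis, log scale) and in the DLD-1 list (y axis, log scale) for the 1175 pooled CDS peaks found in both, each point being 1 peak and the dotted line equality. Points lie on both sides of the line, with 573 peaks higher in SW480 and 602 higher in DLD-1.

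Host genes usually carried 1 coding peak. Of the 3289 hosts, 2263 had 1 CDS peak, 692 had 2, 217 had 3 and 117 had 4 or more, so that 31.2% (29.6 to 32.8) had more than 1. A 3'-UTR peak was also present on 1803 hosts (54.8% of CDS hosts and 36.6% of the 4924 hosts of 3'-UTR peaks), and a 5'-UTR peak on 90. On 1392 hosts the CDS peaks were the only kind. For 301 CDS peaks (6.21%) a peak of another gene overlapped on the same strand and for 121 (2.49%) on the opposite strand, where the source of the reads is uncertain.

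BRCA2, a tumour suppressor of DNA break repair, had the most CDS peaks, 9 over 2256 bases at chr13:32319136-32398710. Of these, 8 lay in 1 block and the last but one joined 4 blocks (BRCA2 is known for a very long exon). Their folds ran from 2.42 to 14.5. None overlapped a SW480 peak, 5 overlapped a DLD-1 peak and 4 neither, at Inputs of 5.40 FPKM in SW480 and 4.62 in DLD-1.

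HEATR1, a factor of ribosomal RNA transcription and processing, had 8 CDS peaks, all of more than 1 block, with folds from 4.75 to 58.9. All 8 were in the DLD-1 list and 2 in the SW480 list. PSMD2, a subunit of the proteasome's regulatory particle, had 7 with folds from 1.91 to 228 and 13 sites. The last of them joined 7 blocks over 1379 bases and had a fold of 232 in SW480 and 38.5 in DLD-1, while the peak with a fold of 228 was in the DLD-1 list only. Of the other hosts of 7 peaks, CKAP5 (a microtubule polymerase) had 1 in SW480, CYFIP1 (a subunit of the WAVE complex) had none and DHX16 (a spliceosomal helicase) had 1, while DLD-1 had all 7 of each. DHX9 and SF3B3, another subunit of the U2 snRNP, had 6 each, with 2 of each in SW480 and 6 in DLD-1.

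A host was more often found among well expressed genes, although not steadily. Of 11858 protein-coding genes with at least 1 FPKM in an Input of the acRIP table, 2951 (24.9%) had a CDS peak. The share was 12.1% (11.1 to 13.3) of genes with a mean Input under 3 FPKM, 24.0% from 3 to 10, 35.9% from 10 to 30, 42.6% (39.1 to 46.2) from 30 to 100, 32.4% (25.3 to 40.4) from 100 to 300 and 46.9% (33.7 to 60.6) above 300. The median fold went the other way, from 13.6 in the lowest group to 4.46 in the highest. Peaks of the highest group were in the SW480 list in 67.6%, against 43.0%, 34.2%, 34.8% and 37.4% in the 4 groups under 100 FPKM.

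CDS peaks also lay on genes with almost no Input. Hosts below 1 FPKM in all 4 Input columns (2 tables, 2 lines) numbered 283 and carried 377 CDS peaks, 7.77% of all. Of these hosts, 147 were listed at 0 in every Input column and carried 191 peaks. The 377 peaks had a median fold of 12.4, and 27 of them (7.16%) reached a fold of 100, against 9.96 and 3.73% for the other hosts. They overlapped a SW480 peak in 49.3% and a DLD-1 peak in 67.9%, against 36.6% and 82.9%. The strongest was MAGEA4, followed by KLK5, NDUFC2 (a subunit of complex I, 573), a clone-named gene, BASP1 (a membrane protein of growth cones, 390), NDUFA9 (complex I, 380), LCP1 (357), MAGEA12 (322) and SOX15 (279). BASP1 had a fold of 21.9 in SW480 and 334 in DLD-1 and was listed at 0 in every Input column. Several of these genes overlap or resemble others: MAGEA4, MAGEA12 and MAGEA6 are near copies, and PTGES3L-AARSD1 is a readthrough of neighbouring genes. COL12A1, a fibril-associated collagen, had 8 CDS peaks of 2 to 4 blocks with folds from 7.25 to 37.1 and Inputs of 0 and 0.0741 FPKM. With Input near 0, the fold rests on few or no Input reads, and whether these peaks reflect RNA of the cells was not tested.

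Under the deposited Input labels, line-specific coding peaks did not follow the expression of their hosts. For hosts of peaks in the SW480 list only, the median log2 ratio of SW480 to DLD-1 Input was -0.05, for those in the DLD-1 list only it was 0.05, and for all expressed genes it was -0.02. Among peaks whose host had at least 2-fold more Input in SW480, 33.6% of 348 were in the SW480 list and 85.9% in the DLD-1 list. Where the host had at least 2-fold more Input in DLD-1, 43.8% of 315 were in the SW480 list and 72.1% in the DLD-1 list. By these labels, the peaks of either line were thus less often found where that line had the more Input. Which Input came from which line is uncertain, since each NAT10 RIP library correlated better with the Input of the other label (given below). Whether this bears on these shares was not tested. L1CAM, a neural cell adhesion protein listed at 0 in the SW480 Input and at 7.35 FPKM in that of DLD-1, had 7 CDS peaks in DLD-1 and 2 of them in SW480. RAB25, an epithelial recycling GTPase at 25.7 and 0 FPKM, had a peak with a fold of 51.5 in SW480 and 14.2 in DLD-1. Another of its CDS peaks went the other way, at 8.8 in SW480 and 271 in DLD-1.

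Groups of genes with a shared role differed in how many of their expressed members hosted a CDS peak, beside 24.9% of all expressed genes. For 3'-UTR peaks the share over all expressed genes was 38.5%. The values are counts of genes, and their Inputs differ. Of proteasome genes, 25 of 44 (56.8%, 42.2 to 70.3) were hosts, with PSMD4, its ubiquitin receptor, at a fold of 383 in SW480 and 382 in DLD-1. PSMC1, a base ATPase, had 62.5 and 198. Of 28 genes of the MCM helicase and the replication fork, 16 (57.1%) were hosts, and the same share hosted a 3'-UTR peak. MCM3 had a fold of 42.2 in SW480 and 829 in DLD-1, and POLD1, the catalytic subunit of DNA polymerase delta, had 170 and 96.8. Tubulins and actins counted 12 of 21 (57.1%), with 19.0% as hosts of a 3'-UTR peak, below the 38.5% of all expressed genes. This list was set by gene symbol and also took TUBGCP genes such as TUBGCP2, which encode neither tubulins nor actins. Splicing factors of the HNRNP and SRSF families counted 16 of 32 and kinesins 14 of 31, among them KIF20A, a motor of cytokinesis. Its strongest CDS peak had a fold of 123 in DLD-1 and did not overlap a SW480 peak, while another was in both lists (3.04 in SW480 and 16.5 in DLD-1).

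Genes of translation differed from each other. Mitochondrial ribosomal proteins counted 37 of 74 hosts (38.9 to 61.1) with a median fold of 17.9. Among them was MRPS12, at 303 in SW480 and 90.5 in DLD-1. MRPL53 was at 1550 in SW480 and 109 in DLD-1, with Inputs of 1.89 and 0 FPKM. A CDS peak listed for CCDC142 had the same folds in both lines, so the source of these reads is uncertain. Aminoacyl-tRNA synthetases counted 17 of 34, with KARS, which charges the lysine tRNA, at 47.4 and 199. Translation factors counted 26 of 64 (40.6%). Of cytosolic ribosomal proteins, 28 of 83 (33.7%, 24.5 to 44.4) were hosts at a median Input of 128 FPKM, and 15.7% hosted a 3'-UTR peak (38.5% over all expressed genes). Of their 41 CDS peaks, 37 were in the SW480 list and 38 in the DLD-1 list, whereas over all CDS peaks SW480 held 37.6%. RPS19, of the small subunit, had a fold of 763 in SW480 and 41.7 in DLD-1. For RPLP2, of the large subunit's stalk, the folds were 118 and 186. Ribosomal protein genes have many processed copies, so reads may be split among them.

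Few members were hosts in some families. Zinc finger genes of the ZNF name counted 47 of 332 (14.2%, 10.8 to 18.3) at a median Input of 2.77 FPKM, histones 2 of 67 (2.99%, 0.822 to 10.2) and HOX genes 1 of 24. RAB GTPases counted 9 of 61 (14.8%, 7.96 to 25.7) for CDS peaks and 30 of 61 (49.2%) for 3'-UTR peaks, beside 24.9% and 38.5% of all expressed genes. RAB34 had a CDS peak with a fold of 1160 in SW480 and 526 in DLD-1, at Inputs of 0 and 2.20 FPKM. Solute carriers outside SLC25 counted 35 of 181 (19.3%), with SLC7A5, a carrier of large neutral amino acids, at 27.6 and 77.8. Chaperones (28 of 72), DEAD and DEAH helicases (18 of 49), integrins and laminins (9 of 20), giant cytoskeletal linkers (8 of 14), SLC25 carriers (12 of 40), keratins (5 of 18), annexins (3 of 9), collagens (3 of 11), myosin heavy chains (3 of 5), S100 proteins (2 of 12) and protocadherins (1 of 2) made up the rest. Keratin peaks had the highest median fold after S100, at 127. KRT7 had 1400 in SW480 and 269 in DLD-1, with 13 sites, and KRT19 had 384 and 225.

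**Figure D5:**
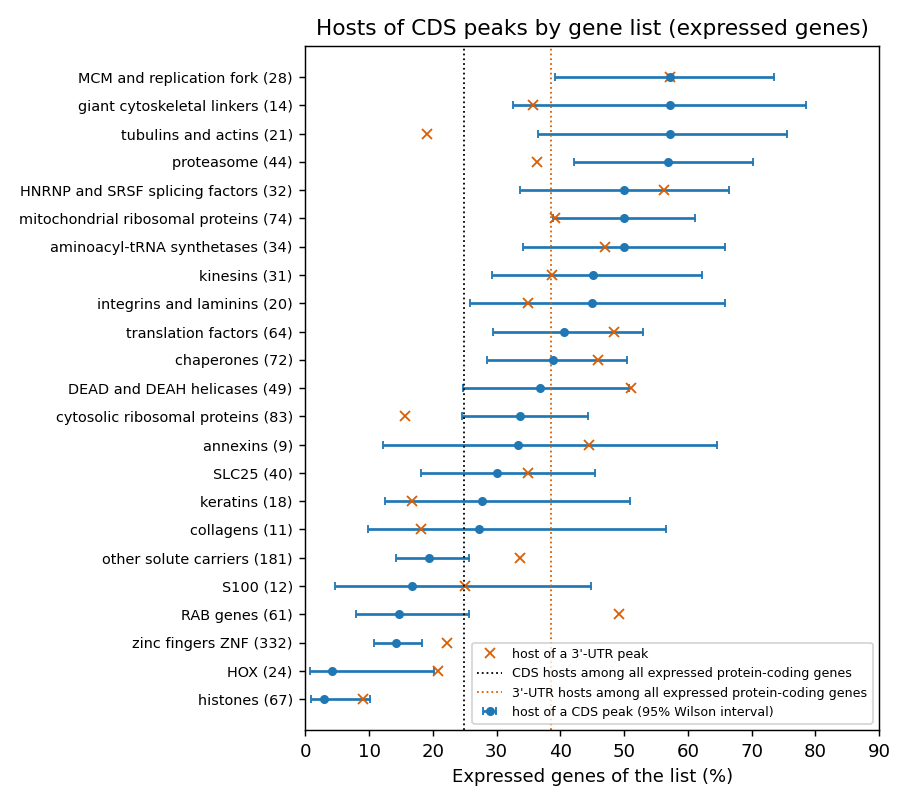
Percent of expressed genes (x axis) that host a CDS peak (points with 95% Wilson intervals) or a 3'-UTR peak (crosses) in the gene lists with at least 9 expressed genes (y axis, number of expressed genes in brackets), with dotted lines at the shares of all expressed genes, 24.9% for CDS and 38.5% for 3'-UTR peaks. The 11 uppermost lists, from replication genes to chaperones, lie above the CDS line with their whole interval, and ZNF genes, HOX genes and histones below it.

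Of 14 genes the study followed, 5 hosted CDS peaks in the pooled list. NAT10 itself had 5 with folds of 3.56 to 22.9, of which 4 overlapped a DLD-1 peak only and 1, with a fold of 13.6, a SW480 peak only. CTNNB1, which encodes beta-catenin, had 3 with folds of 3.44, 5.92 and 5.35, all in DLD-1 only, and GSK3B, its kinase, had 2, of which 1 was in both lines (15.4 in SW480 and 9.75 in DLD-1). KIF23, a kinesin of the central spindle, had 2 CDS peaks. That at chr15:69436206-69438273 had 3 blocks, a fold of 19.6 and no site, and that at chr15:69444812-69446018 had 2 blocks, a fold of 8.15 and 1 site. Their folds in DLD-1 were 51.1 and 21.2, and neither overlapped a SW480 peak. UBA1, the ubiquitin-activating enzyme, had 2, of which 1 was in both lines. HNRNPH3, MPP6, NAP1L4, POU2F1, HNRNPA2B1, MYC, CCND1, BIRC5 and BCL2L1 had none in the pooled list, at SW480 Inputs from 2.40 FPKM (MPP6) to 114 (CCND1). The DLD-1 list held 2 CDS peaks on BIRC5.

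NAT10 antibody enrichment of the CDS hosts had a median of 0.26 under the label SW480 and 0.20 under the label DLD-1, against 0.15 (0.12 to 0.17) and 0.02 (-0.01 to 0.04) for 7521 genes without a CDS peak. The values are log2((RIP FPKM + 1) / (Input FPKM + 1)) over 10350 protein-coding genes with at least 1 FPKM in each Input. In this table the labels do not pair: across 16196 genes the RIP library labelled SW480 correlated at r = 0.944 with the Input labelled DLD-1 and at 0.871 with that labelled SW480, and the RIP library labelled DLD-1 at 0.951 with the Input labelled SW480 and 0.856 with its own. The Inputs of the acRIP table paired by label, at 0.963 (SW480) and 0.957 (DLD-1) with the Inputs of the RIP table, against 0.850 and 0.860 across labels. The median of 2829 CDS hosts was 0.26 (0.22 to 0.29) under the label SW480, against 0.18 for all genes, and 0.20 (0.16 to 0.23) under the label DLD-1, against 0.07. Taking the Input of the other label gave 0.21 and 0.19, against 0.11 and 0.09. At least 2-fold enrichment was seen in 18.4% and 18.1% of CDS hosts, beside 17.4% and 16.7% of all genes. Hosts of 3'-UTR peaks without a CDS peak had medians of 0.24 and 0.09.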

How the data were processed

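RNA of SW480 and DLD-1 was sequenced as Input, NAT10 RIP and ac4C acRIP, with 1 library per group, grouped by the titles in the labels. The authors deposited 3 peak lists (each line and pooled) on GRCh38, with a fold of acRIP over Input, a p-value, scores that give the log10 of this p-value and of the FDR, blocks, position and listed sites. The submitters' processing notes name cutadapt 2.5 and HISAT2 2.1.0, and the peak caller is not given in the sources used here. FPKM values were deposited by the authors for RIP and Input, and a second Input table was read as FPKM although its unit is not named. The deposited ratio columns of RIP to Input hold the authors' own comparisons and were not used.

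Peaks were CDS members by the deposited position and a protein-coding host. Scripts used Python 3.11.15, pandas 2.3.3, NumPy 2.4.6, SciPy 1.17.1 and matplotlib 3.10.9 and were tested on simulated data. Overlap meant at least 1 base on the same strand, block by block. Starts were moved by 1 base to count from 1. On the plus strand a listed site position is the base before the pattern (130 of 130 readable sites matched), and on the minus strand it is the leftmost base. Minus-strand peaks of more than 1 block listed sites as if block and gap sizes in genome order ran down from the peak's upper end. Their offsets from that end were laid on the true blocks, after which 102 of 102 readable minus-strand sites matched, 15 of them at a changed position. Distances across blocks were counted along the joined blocks. Shares have 95% Wilson intervals, site shares exact binomial intervals and medians order-statistic intervals. FDR values that a spreadsheet had turned into errors (206 CDS peaks) were taken as below 0.05. Hosts matched the expression tables by gene ID (3289 of 3289). RIP ratios used a pseudocount of 1, which understates changes of low genes. Depth of the acRIP libraries is unknown.

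Named genes were the 10 hosts with the most CDS peaks, the 5 peaks each that were longest or had the most blocks, sites or fold in both lines, 14 genes of the study and up to 4 strongest peaks in each of 25 gene lists. Gene lists were set by patterns of the gene symbol or by named members. Low-Input hosts, genes with regular spacing and the readable stretches were chosen after values were seen. The members and lists were chosen with earlier results of these data known. Alternatives were an FDR below 0.05, a larger overlap, position in the line's list, fold, length, joining of near peaks, another pattern length, other Inputs, filters and pseudocounts, and, added after seeing the data, other site pairs, positions as listed and the lists of each line.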

Additional observations from a re-analysis of the deposited data

Results flagged for a closer look

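The pooled list also held 23 peaks with the position CDS on hosts that are not protein-coding, which no comparison above used. Of these, 17 lay on processed transcripts with a median fold of 19.2, 3 on sense-overlapping transcripts with a median fold of 9.96, and 1 each on a 3' overlapping non-coding RNA (10.6), a polymorphic pseudogene (11.8) and an unprocessed pseudogene (7.70). They were singled out because coding sequence was given as the position on genes without a coding biotype, and the reason was not tested.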

How the results depend on the processing

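With 1 library per group, no replicate could be left out. No paired analysis was possible because no result came from a test. Position from a reference annotation, sites counted in a genome and the planned sequences of the highest peaks were not run, as no genome of the files' build was used here. No direction reversed under the settings run, apart from the order of codon positions in peaks of 1 block, given last. With 50% of both peaks shared, 31.3% of CDS peaks were in SW480, 74.8% in DLD-1 and 16.5% in both. Counting only peaks the line's list also places in CDS gave 35.7% and 79.0%. An FDR below 0.05 gave 82.8% in DLD-1. At or above the median fold, 76.4% had more than 1 block, 67.4% a site, and the median length was 271 bases. Among peaks of 150 to 300 bases 54.1% had a site. CDS peaks of the SW480 list had 68.1% with more than 1 block, 62.3% with a site and a median of 181 bases, and those of DLD-1 had 73.3% with more than 1 block and a median of 211. Joining peaks under 200 bases apart left 28.5% of hosts with more than 1. Spacing at multiples of 3 was 49.7% at 30 bases or more and 51.2% for first pairs. The median RIP ratio of hosts, on the log2 scale, was 0.20 and 0.15 (labels SW480 and DLD-1) at an Input of 5 FPKM or more, 0.21 with the Input of the other label (SW480), and 0.74 in both with the acRIP-table Inputs, where all genes had 0.66 and 0.62. The cause of these shifts was not tested. In peaks of 1 block, 33.3% of the 6 readable pattern sites started at codon position 3 and 50% at position 1. The sites at position 1 include the second TACC3 site, which may lie in an intron, so this order is uncertain. In the main count position 3 was ahead.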
